A study of Drosophila melanogaster with 24 samples.

Results

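The 9 genes described here make or answer the steroid hormone ecdysone in Drosophila melanogaster. They were chosen by name: 4 enzymes of ecdysone synthesis (spo, dib, sad and shd), both partners of the hormone's receptor (EcR and usp) and 3 genes of the transcriptional response (Eip74EF, Eip75B and ftz-f1). All 9 were among the 17895 gene rows of the larval table, and 8 were among the 10889 gene rows of the embryo table. The remaining one, usp, was not analysed here in embryos.

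Ecdysone is built from dietary sterol by a series of cytochrome P450 enzymes, most of them known as the Halloween genes because embryos that lack them fail to make normal cuticle. The last enzyme of the series, encoded by shd, turns ecdysone into its active form in the target tissues. The hormone binds a heterodimer of the nuclear receptors EcR and Ultraspiracle, which switches on early genes such as Eip74EF and Eip75B. A pulse of hormone in mid-embryogenesis is needed for the embryo's tissue movements and cuticle, and later pulses time the larval molts. The nuclear receptor encoded by ftz-f1 typically appears as a pulse declines, and in later stages it sets the competence of tissues for the next one.

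The study compared sima mutants with heterozygotes. sima encodes Similar, the counterpart in flies of mammalian HIF-1-alpha, which mediates the transcriptional response to low oxygen. Mutants had the genotype Sima 1/20, with a different mutant allele on each chromosome, and controls were Sima 1/+, so that both groups carried allele 1 and no control was wild type. There were 3 embryo collections, aged 8-12 h, 12-16 h or 16-20 h from egg laying, and whole larvae aged 60 h, with 3 samples in each of the 8 groups. No label says whether the replicates were separate collections or cultures, so the p-values measure the spread between these samples, which may be technical. A lower level in a whole animal can mean fewer expressing cells or less RNA per cell, and these cannot be told apart.

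The values deposited were FPKM, fragments per kilobase scaled to a depth for each sample. The kilobases proved to be those of the gene's whole genomic span, introns included. With the span, the values turned back into whole fragments for at least 99.99% of the nonzero gene values in every sample (within 0.05 of a whole number), against at most 26.1% with exon length. The genes listed here differ widely in this respect. EcR spans 8.18 times its exon length, Eip75B 8.46 times, Eip74EF 6.50 times and ftz-f1 5.91 times, against 1.00 times for spo and 1.14 times for dib. FPKM values are therefore compared within a gene, and levels of different genes are given per kilobase of exon. Scaling depths ran from 6.60 to 13.4 M fragments (M, mega) among embryo samples and from 10.3 to 15.2 M among larval samples. Recovered fragments summed to 0.445 to 0.757 of this depth in embryos. Fewer rows were analysed there (14336, against 24278 in larvae), so the embryo sums lack genes and do not show what the depth is. In larvae they summed to 1.01 to 1.07 of it in controls and 0.937 to 0.978 in mutants. Since the sums of larval controls exceeded the scaling depth, it need not be a plain library total. Whether fragments from introns were counted is not given in the sources used here.

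In the reference annotation (Ensembl, build BDGP6), 6 of the genes lie on the left arm of chromosome 3. dib lies at 3L:4062292-4064551, spo at 3L:5590083-5592571, shd at 3L:14614458-14622205, Eip74EF at 3L:17558672-17619325, Eip75B at 3L:17950953-18064696 and ftz-f1 at 3L:18750607-18801309. The others are sad at 3R:11877235-11879754, EcR at 2R:6087873-6169087 and usp at X:2038798-2042311. EcR has 6 other genes on its own strand within its span and 9 on the opposite strand. Eip75B and ftz-f1 each overlap 2 on their own strand, and usp overlaps 1. Such overlaps make the counts of these genes less certain. The values are per gene and do not separate isoforms, such as the hormone-responsive forms of Eip74EF.

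The tests used limma on log2(FPKM + 1) for genes that reached 1 FPKM in 3 or more samples of a table, with Benjamini-Hochberg adjustment over all genes tested and a threshold of 0.05. This admitted 6 of the 8 genes in embryos (dib, shd, EcR, Eip74EF, Eip75B and ftz-f1) and 3 of the 9 in larvae (sad, shd and usp). The genes with large spans failed it in larvae although each had at least 58 fragments in every larval sample. A second test, limma-voom on the recovered fragments, therefore admitted genes with at least 10 fragments in at least 3 samples. It was chosen after the data had been seen, and it admitted 8 genes in embryos and 8 in larvae.

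The targeted gene checked the labels only in part. sima RNA was present in every sample, at 1.96 ± 0.264 FPKM in 8-12 h mutants against 2.46 ± 0.0501 in controls and at 1.26 ± 0.0604 against 1.61 ± 0.0443 in larvae (SD, n = 3). Its mutant values were below the control values without overlap at all 4 stages, and it passed limma's test at 12-16 h (log2 fold change -0.22, adjusted p = 0.0238) and 16-20 h (-0.26, adjusted p = 0.0222).

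More of these genes changed between stages than between genotypes, as was so over all genes tested. In controls, 5 of the 6 tested genes changed from 8-12 h to 12-16 h, beside 68.1% of all genes tested, and 5 of 6 from 12-16 h to 16-20 h, beside 67.8%. In mutants 5 of 6 changed at the first step, beside 64.9%, and 3 of 6 at the second, beside 63.9%. Among embryo samples dib and shd reached 1 FPKM only at 8-12 h, and Eip74EF only at 16-20 h. These genes passed the filter through a stage where they were high, so the step counts are not read against the background. Between genotypes, 1 of 6 was called at 8-12 h (5.63% of all genes tested), 1 of 6 at 12-16 h (31.7%), 0 of 6 at 16-20 h (15.8%) and 0 of 3 in larvae (9.4%). The counts at 12-16 h, at 16-20 h and in larvae are thus not above the background. The 1 gene called at 8-12 h, dib, passed the filter only with the help of the 8-12 h controls, where it was high. That count is therefore not read as above the background. At an unadjusted p under 0.05 limma counted 3 of 6 genes at 8-12 h, beside 22.7% of all genes tested, 4 at 12-16 h (42.7%), 0 at 16-20 h (29.5%) and 0 of 3 in larvae (27.6%).

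**Figure D1:**
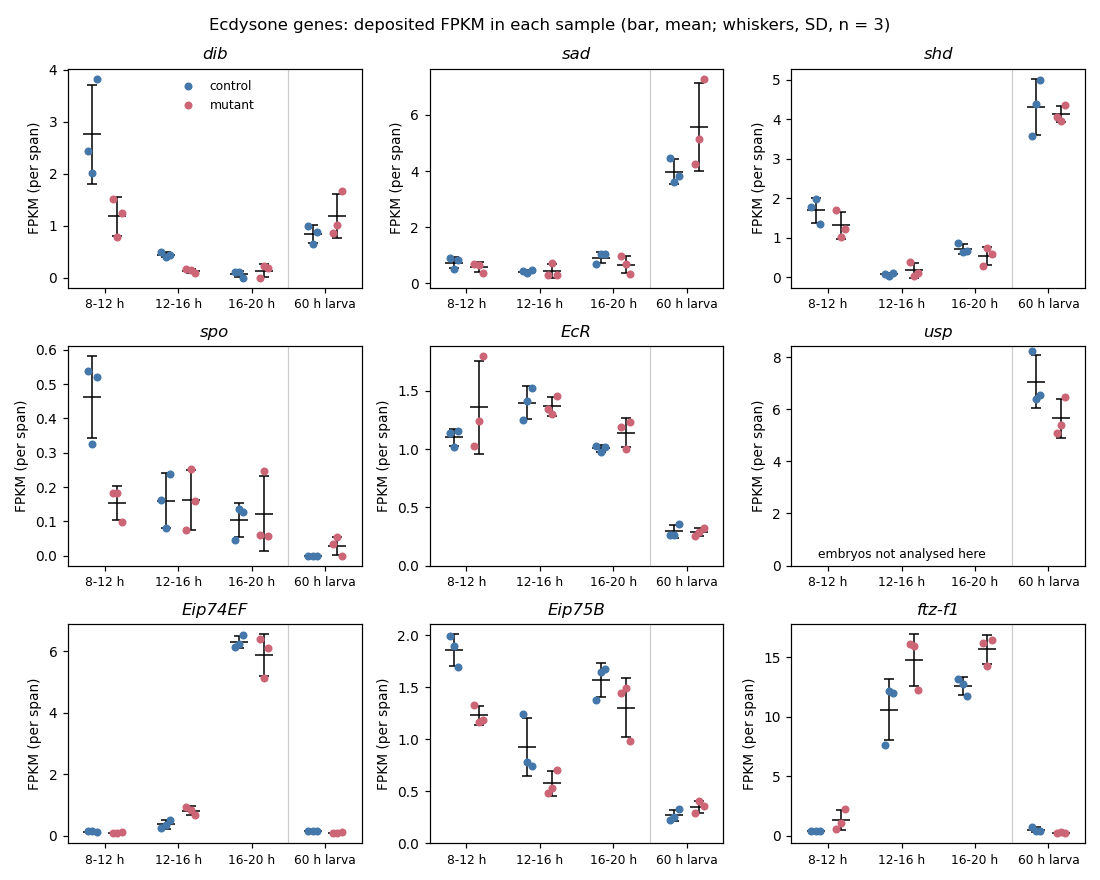
Deposited FPKM, per kilobase of genomic span, of the 9 genes in every sample (y axis, a separate scale for each gene) by stage (x axis); blue points are controls, red points are mutants, the bar is the mean and the whiskers are the SD (n = 3). dib and spo were lower in 8-12 h mutants, Eip74EF was higher in 12-16 h mutants, and ftz-f1 and Eip74EF were high at 16-20 h in both genotypes.

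Among the synthesis enzymes, dib was lower in the youngest mutant embryos, at the stage where it was highest. dib encodes a mitochondrial P450 of the late steps of synthesis. At 8-12 h it stood at 2.44, 2.01 and 3.83 FPKM in the 3 controls and at 1.51, 0.775 and 1.25 in the 3 mutants, from 74, 56 and 100 fragments against 45, 23 and 35. All 3 mutant values lay below all 3 control values. The mean was 1.18 ± 0.373 FPKM in mutants against 2.76 ± 0.951 in controls (SD, n = 3), a ratio of 0.427, and the limma log2 fold change was -0.77 (SE 0.15, adjusted p = 0.00976) on the log2(FPKM + 1) scale. In recovered fragments the log2 fold change was -1.21 (SE 0.32, voom adjusted p = 0.0264). dib reached 1 FPKM in 3 samples only with the help of the 8-12 h controls, joined by 2 mutants, and the fit with no filter gave the same -0.77 (limma adjusted p = 0.0112). Without mutant replicate 2, the lowest sample, the call was lost in limma (log2 fold change -0.63, adjusted p = 0.0631, and 0.0609 with no filter). In voom only 2 of the 6 fits without an 8-12 h library called it. The voom adjusted p was 0.0730 without control replicate 1, 0.0764 without control replicate 3, 0.122 without mutant replicate 2 and 0.0576 without mutant replicate 3. The limma call was also lost with a pseudocount of 0.1 (adjusted p = 0.112) and when the 8-12 h samples were fitted alone (adjusted p = 0.124).

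Non-overlap by itself is common in these data. Mutant and control values did not overlap for 30.0% of all genes tested at 8-12 h, 40.9% at 12-16 h, 40.9% at 16-20 h and 34.8% in larvae.

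dib then fell steeply in both genotypes. In 12-16 h embryos it was at 0.497, 0.395 and 0.438 FPKM in controls and at 0.165, 0.138 and 0.0878 in mutants. The groups again did not overlap, with only 14, 9 and 10 fragments against 4, 4 and 2. The difference did not pass the test (log2 fold change -0.35, SE 0.15, limma adjusted p = 0.0940), nor in fragments (-1.65, SE 0.67, voom adjusted p = 0.0664). It passed in 3 of 17 alternative fits, median centring among them (-0.43, adjusted p = 0.0404). By 16-20 h dib was nearly gone, with 2, 2 and 0 fragments in controls and 0, 4 and 3 in mutants. A count of 0 there allows up to 3 fragments, or 0.139 FPKM in the control sample and 0.201 in the mutant sample (counting error only). From 8-12 h to 12-16 h the log2 fold change in controls was -1.35 (SE 0.15, limma adjusted p = 1.57e-06) and in mutants -0.93 (SE 0.15, adjusted p = 7.40e-05), and with no filter the adjusted p was 2.31e-06 and 9.52e-05. The later step in controls, -0.44 (adjusted p = 0.0205), lost its call without 12-16 h replicate 1 (adjusted p = 0.0576) or 16-20 h replicate 3 (0.0672), and in mutants the later step was 0.00 (adjusted p = 0.990).

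spo encodes a P450 of an early step, a role that its close relative spok takes over in larvae, and it was low throughout. In 8-12 h controls it had 18, 10 and 15 fragments, which is 0.540, 0.326 and 0.522 FPKM. In 8-12 h mutants it had 6, 6 and 3 fragments, at 0.183, 0.184 and 0.0972 FPKM. The mutants were all below the controls, with a ratio of means of 0.334. Only these 3 controls reached 10 fragments, so spo passed the fragment filter through the group where it was high, and its fragment test is not used. With no filter on low values limma gave a log2 fold change of -0.34 (adjusted p = 0.0364). That call was lost without control replicate 1 or 3 or mutant replicate 2 or 3 (adjusted p from 0.0908 to 0.160). At the later embryo stages the genotypes overlapped, at 2 to 8 fragments at 12-16 h and 1 to 5 at 16-20 h. In larvae spo was at 0 in all 3 controls, which allows up to 0.0946 to 0.117 FPKM, and had 1, 2 and 0 fragments in the mutants.

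sad, which encodes another mitochondrial P450 of the late steps, was low in embryos and clearly present in larvae. It ranged from 0.515 to 0.888 FPKM in 8-12 h controls and from 0.384 to 0.693 in mutants, and the genotypes overlapped at every stage. Its voom log2 fold changes between genotypes were -0.35 (SE 0.35) at 8-12 h, -0.01 (SE 0.43) at 12-16 h and -0.54 (SE 0.40) at 16-20 h, and none passed the test. In larvae sad was at 4.48, 3.63 and 3.83 FPKM in controls and 4.27, 5.14 and 7.30 in mutants. The larval log2 fold change, 0.38 (SE 0.18), was not called (limma adjusted p = 0.231).

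shd fell and rose again in embryos in both genotypes. Controls were at 1.77, 1.98 and 1.35 FPKM at 8-12 h, at 0.0932, 0.0384 and 0.102 at 12-16 h and at 0.860, 0.646 and 0.661 at 16-20 h. The middle stage therefore held 9, 3 and 8 fragments, against 184, 189 and 121 before it. The fall measured -1.32 on the log2(FPKM + 1) scale (SE 0.14, limma adjusted p = 8.13e-07) and the later rise 0.67 (SE 0.14, adjusted p = 5.72e-04). In embryos shd reached 1 FPKM only at 8-12 h, where it was high. With no filter the limma adjusted p was 1.15e-06 for the control fall and 6.57e-04 for the control rise. Mutants showed a fall of -0.98 (SE 0.14, adjusted p = 1.99e-05, and 2.50e-05 with no filter). Their later difference, 0.39 (SE 0.14, adjusted p = 0.0255), lost its call with quantile normalization (0.21, adjusted p = 0.135), median centring (0.23, adjusted p = 0.174) and the maternal list as a covariate (0.34, adjusted p = 0.0752). It also lost it without replicate 2 or 3 of either stage (adjusted p from 0.0668 to 0.108). At 12-16 h mutant replicate 1 stood apart at 0.386 FPKM and 32 fragments, beside 0.0404 and 0.103 FPKM in the other 2 samples. Genotype made no difference that passed the test at any of the 4 stages (limma adjusted p from 0.365 to 0.848). Larvae had the highest values, 4.32 ± 0.716 FPKM in controls and 4.13 ± 0.201 in mutants (SD, n = 3).

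Neither receptor gene was called between genotypes where it was tested. EcR, the ecdysone-binding partner, stayed between 0.974 and 1.80 FPKM in all 18 embryo samples, from 639 to 1814 fragments. In 8-12 h mutants it was at 1.03, 1.24 and 1.80 FPKM against 1.14, 1.02 and 1.15 in controls, so that 1 mutant sample lay well above the rest. No genotype comparison called it (limma adjusted p from 0.399 to 0.911 in embryos, voom adjusted p = 0.942 in larvae). Its difference between 12-16 h and 16-20 h controls passed the test (log2 fold change -0.26, SE 0.10, limma adjusted p = 0.0351), but 5 of the 6 fits without 1 of these libraries lost the call (adjusted p from 0.0621 to 0.110), all but the one without 12-16 h replicate 1. Its difference between 8-12 h and 12-16 h controls, 0.19, did not (adjusted p = 0.110) and turned to -0.30 with quantile normalization (adjusted p = 0.0148). In recovered fragments that difference was 0.34 and narrowly passed (voom adjusted p = 0.04915). In larvae EcR was at 0.259 to 0.360 FPKM in controls and 0.256 to 0.320 in mutants.

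usp, which encodes Ultraspiracle, was at 8.25, 6.40 and 6.57 FPKM in larval controls and at 5.08, 5.39 and 6.50 in larval mutants. The ranges touched, with the highest mutant above the lowest control. The ratio of means was 0.800 and the log2 fold change -0.28 (SE 0.13, limma adjusted p = 0.224).

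**Figure D2:**
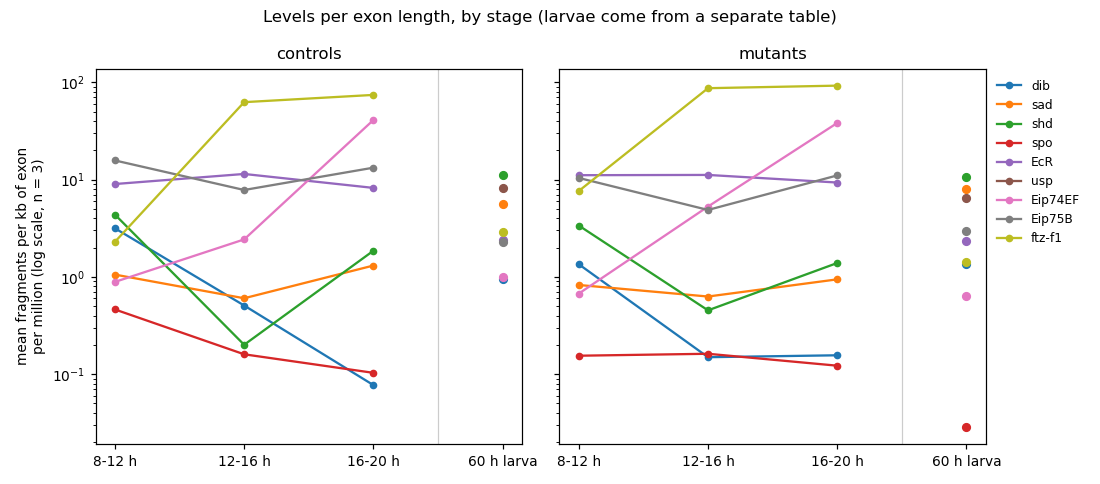
Mean level of each gene per kilobase of exon, scaled to depth as FPKM is (y axis, log scale) by stage (x axis) in controls (left) and mutants (right), n = 3; larvae come from a separate table and are not joined by lines, and means of 0 (spo in larval controls) are not drawn. ftz-f1 and Eip74EF crossed above the other genes as embryos aged, while dib and spo declined in controls.

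On the FPKM scale per kilobase of exon, the order of the genes turned over during development. In 8-12 h controls Eip75B was highest at 15.7 ± 1.30, followed by EcR at 9.01 ± 0.596 and shd at 4.37 ± 0.819 (SD, n = 3). In 16-20 h controls ftz-f1 led at 74.3 ± 4.33 and Eip74EF came second at 41.0 ± 1.30, with Eip75B at 13.3 ± 1.37. In larval controls shd led at 11.1 ± 1.84, then usp at 8.18 ± 1.18 and sad at 5.66 ± 0.632. The orders rest on the assumption that the fragments came from exons.

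Eip74EF, an early gene that encodes ETS-domain transcription factors, was the one gene called higher in mutants by limma on FPKM. At 12-16 h the controls were at 0.241, 0.358 and 0.521 FPKM, from 182, 219 and 319 fragments. The mutants were at 0.944, 0.835 and 0.659 FPKM, from 613, 648 and 403 fragments, and all lay above the controls. Their ratio of means was 2.18. The limma difference was 0.40 (SE 0.09, adjusted p = 0.00495) on the log2(FPKM + 1) scale, and the fragments gave 1.20 (SE 0.20, voom adjusted p = 5.12e-04). The call held in all 6 limma fits and all 6 voom fits that left out a 12-16 h library, and with a replicate block (adjusted p = 0.0334). It was lost when the mean level of a list of maternally supplied RNAs was a covariate (0.48, adjusted p = 0.264). With that covariate 40 of the 6784 genes tested were called at 12-16 h, against 2148 without it. The list was itself higher in mutants there, so this fit does not cleanly separate the list from genotype.

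The same gene rose steeply with age. Controls went from 0.139, 0.155 and 0.116 FPKM at 8-12 h to 6.14, 6.23 and 6.53 at 16-20 h. The step from 12-16 h to 16-20 h measured 2.42 on the log2(FPKM + 1) scale (SE 0.09, limma adjusted p = 5.88e-12) in controls and 1.92 (SE 0.09, adjusted p = 1.72e-10) in mutants. In embryos Eip74EF reached 1 FPKM only at 16-20 h, where it was high. With no filter the limma adjusted p of this step was 1.60e-11 in controls and 4.25e-10 in mutants. At 16-20 h the mutants were at 6.40, 5.12 and 6.11 FPKM and overlapped the controls (log2 fold change -0.09, adjusted p = 0.560). The earlier step was also called in controls (0.27, adjusted p = 0.0182), but not without 12-16 h control replicate 3 (adjusted p = 0.0988) or 8-12 h control replicate 3 (0.0510), nor with the maternal list as a covariate (0.22, adjusted p = 0.257) or after median centring (0.10, adjusted p = 0.333), and its sign turned with quantile normalization (-0.18, adjusted p = 0.0928). In mutants that step was 0.71 (SE 0.09, adjusted p = 6.46e-06), and with quantile normalization 0.17 (adjusted p = 0.116). Those scalings moved the median of all genes in the control step from 0.02 to -0.15 and -0.16 on the log2 scale.

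The genotype difference of Eip74EF was not the same at every embryo stage. A moderated F test of the terms for genotype by stage was called for 2 of the 6 genes, beside 14.6% of all genes tested: Eip74EF (adjusted p = 0.0345) and dib (adjusted p = 0.0406). dib had passed the filter only with the help of the 8-12 h controls, where it was high. In fragments the F test did not call dib (voom adjusted p = 0.249). For Eip74EF the difference was larger at 12-16 h than at 16-20 h by 0.49 on the log2(FPKM + 1) scale (limma interaction -0.49, SE 0.13, adjusted p = 0.0281), and in fragments the interaction was -1.31 (SE 0.25, voom adjusted p = 0.00527). With a replicate block neither gene passed the F test (adjusted p = 0.134 for Eip74EF and 0.0698 for dib).

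In larvae Eip74EF was at 0.165, 0.153 and 0.144 FPKM in controls and at 0.0779, 0.0901 and 0.126 in mutants, from 103, 115 and 111 against 58, 83 and 113 fragments. The mutants were all lower, with a ratio of means of 0.635, but the difference did not pass (log2 fold change -0.66, SE 0.20, voom adjusted p = 0.0729).

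Eip75B encodes a haem-binding nuclear receptor that counteracts the product of the response gene Hr3. At 8-12 h it was at 1.99, 1.90 and 1.69 FPKM in controls and at 1.34, 1.17 and 1.18 in mutants, which were all lower. The ratio of means was 0.661 from 7928 fragments over the controls and 5419 over the mutants. limma on FPKM did not call it (log2 fold change -0.36, SE 0.11, adjusted p = 0.0778). The fragments did, at -0.60 (SE 0.18, voom adjusted p = 0.0489), but 5 of the 6 fits that left out an 8-12 h library gave adjusted p-values of 0.0639 to 0.181.

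At 12-16 h Eip75B was at 1.25, 0.785 and 0.740 FPKM in controls and at 0.482, 0.537 and 0.710 in mutants. Control replicate 1 stood above the rest, and the mutants were all below the controls. limma on FPKM did not call the difference (-0.28, SE 0.11, adjusted p = 0.0702), and the fragments did at -0.67 (SE 0.19, voom adjusted p = 0.0138). Without control replicate 1 the voom value was -0.43 (adjusted p = 0.0932), and without mutant replicates 1 and 2 in turn the adjusted p was 0.0585 and 0.0553. Over the stages Eip75B fell and rose again in both genotypes. The control fall was -0.58 (SE 0.11, limma adjusted p = 3.20e-04). The control rise was 0.42 (SE 0.11, adjusted p = 0.00363), which fell to 0.09 with quantile normalization (adjusted p = 0.524) and 0.23 with median centring (adjusted p = 0.0870). The mutant rise was 0.54 (SE 0.11, adjusted p = 6.25e-04). In larvae the values were 0.227 to 0.327 FPKM in controls and 0.290 to 0.404 in mutants, with overlap.

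ftz-f1 came on between the first and the second embryo stage and had mutant values above the controls at all 3. In 8-12 h controls it was at 0.411, 0.368 and 0.386 FPKM. The 8-12 h mutants were at 0.567, 1.07 and 2.24 FPKM, from 379, 712 and 1409 fragments, so that all 3 lay above the controls and spread widely among themselves. The ratio of means was 3.33. On log2(FPKM + 1) the difference was 0.66 (SE 0.21, limma adjusted p = 0.0794), and the fragments gave 1.51 (SE 0.36, voom adjusted p = 0.0175). Without mutant replicate 3, the highest, the voom value was 1.00 (adjusted p = 0.0371). The call was lost without control replicate 1 (adjusted p = 0.0730), control replicate 2 (0.0664) or mutant replicate 2 (0.0546).

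At 12-16 h ftz-f1 was at 7.66, 12.15 and 12.0 FPKM in controls and at 16.1, 15.9 and 12.24 in mutants. At 16-20 h it was at 13.2, 12.8 and 11.8 FPKM in controls and at 16.2, 14.3 and 16.5 in mutants. The values did not overlap at either stage, though at 12-16 h they nearly touched. Neither difference was called (log2 fold change 0.46, SE 0.21, limma adjusted p = 0.108 at 12-16 h, and 0.29, SE 0.21, adjusted p = 0.379 at 16-20 h). The 16-20 h difference was called when that stage was fitted alone (limma adjusted p = 0.0420). With the maternal covariate both signs turned (-0.71 and -0.41, neither called). The rise from 8-12 h to 12-16 h was 3.04 in controls (SE 0.21, adjusted p = 5.90e-09) and 2.84 in mutants (SE 0.21, adjusted p = 1.24e-08). In larvae ftz-f1 was at 0.737, 0.356 and 0.364 FPKM in controls and at 0.198, 0.306 and 0.213 in mutants. Control replicate 1 was the highest, the groups did not overlap, and the difference was not called (-0.93, SE 0.32, voom adjusted p = 0.102).

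**Figure D3:**
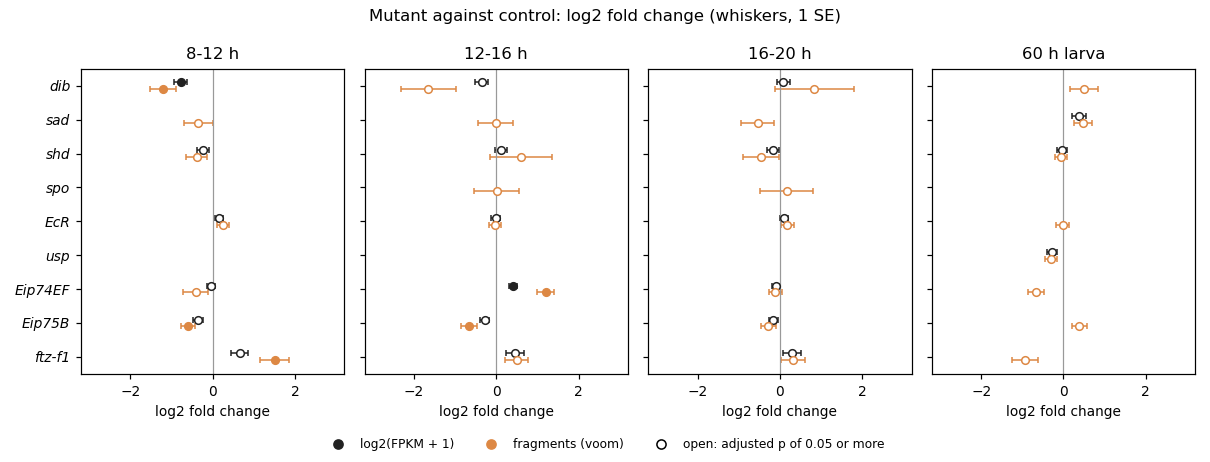
Log2 fold change of mutants against controls (x axis, whiskers 1 SE) for each gene (y axis) at the 4 stages, from limma on log2(FPKM + 1) (black) and from voom on recovered fragments (orange); filled points had an adjusted p under 0.05. dib at 8-12 h and Eip74EF at 12-16 h were filled on both scales, and Eip75B and ftz-f1 on the fragment scale only (the fragment value of spo at 8-12 h is not drawn).

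Counted in fragments, and leaving out spo, 3 of 7 genes were called at 8-12 h, where 8.44% of all genes tested were: dib and Eip75B lower and ftz-f1 higher in mutants. Each of these 3 calls was lost in at least 3 of the 6 fits without an 8-12 h library. At 12-16 h 2 of 8 were called, beside 32.7% of all genes: Eip74EF higher and Eip75B lower. At 16-20 h 0 of 8 were called, beside 13.0%, and in larvae 0 of 8, beside 11.7%. At an unadjusted p under 0.05 voom counted 4 of 8 at 8-12 h, beside 25.7% of all genes tested. That count holds spo, which passed the filter only through the controls. It was 3 of 8 at 12-16 h (43.2%), 0 of 8 at 16-20 h (26.8%) and 2 of 8 in larvae (30.1%).

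The 18 embryo samples also gave the genes whose pattern was most like each of the 6 tested, by Pearson's r on log2(FPKM + 1) among the 3582 or 3583 tested genes with an SD of at least 0.5. These are descriptions across samples that share stages and genotypes. For Eip74EF they were SIFaR and Cln3, both with r = 0.997, and for ftz-f1 Ccp84Ac (0.996) and Phk-3 (0.994). dib was most like CG11906 (0.957) and MCPH1 (0.942), and shd most like Oatp58Dc (0.927) and yellow-e2 (0.921). Eip75B had CG7272 (0.884) and alpha-Est7 (0.862), and EcR had Start1 (0.770) and RhoGAP93B (0.756). Among the 6 themselves, dib and ftz-f1 ran most opposite (r = -0.928), and dib and shd ran most alike (0.725).

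Other genes of the pathway were counted from a list of 48: enzymes and helpers of synthesis, hormone transport and breakdown, receptor partners, and response genes. Of these, 28 were in the embryo table and 22 were tested there, and 26 of the 48 were tested in larvae. At 8-12 h 2 were higher and 1 lower in mutants, with a median log2 fold change of 0.12 beside 0.01 over all genes tested. The 3 called were 13.6% of the 22, beside 5.63% of all genes tested. At 12-16 h 2 were higher and 3 lower (median -0.05 beside 0.02), at 16-20 h 0 and 3 (0.00 beside -0.03), and in larvae 1 and 1 (0.02 beside -0.03). The shares called were 22.7% at 12-16 h, 13.6% at 16-20 h and 7.69% in larvae, none above the 31.7%, 15.8% and 9.4% of all genes tested.

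At 8-12 h Hr3, a nuclear receptor known to switch on ftz-f1, was at 1.05, 1.16 and 1.03 FPKM in mutants against 0.595, 0.586 and 0.659 in controls. Its log2 fold change was 0.37 (SE 0.08, limma adjusted p = 0.0136). At 12-16 h the order of Hr3 was the reverse, with all mutants below the controls (ratio of means 0.764). limma on FPKM did not call that difference (-0.19, adjusted p = 0.0677), but the fragments did (-0.41, voom adjusted p = 0.0152). Cth, also known as Eip55E, an enzyme of sulphur amino acid metabolism, was higher in mutants at 8-12 h (0.41, adjusted p = 0.0330) and at 12-16 h (0.32, adjusted p = 0.0256). ImpL2, a secreted protein that binds insulin-like peptides, was lower at both, with -0.35 (adjusted p = 0.0316) at 8-12 h and -0.86 (SE 0.09, adjusted p = 2.30e-05) at 12-16 h. Its 12-16 h values were 5.62, 5.36 and 5.97 FPKM in mutants against 11.3, 12.2 and 9.79 in controls. With a replicate block 0 of these 22 genes were called at 8-12 h, and without 8-12 h control replicate 1 or 2, or mutant replicate 2, also 0. Without control replicate 3 or mutant replicate 3, the count was 1.

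Also at 12-16 h the cuticle gene Edg91 was higher in mutants, at 5.55, 4.29 and 7.87 FPKM against 1.22, 1.06 and 1.96 (log2 fold change 1.50, SE 0.21, limma adjusted p = 2.94e-04). ImpE1, an ecdysone-inducible gene of imaginal discs, was lower (-0.68, adjusted p = 0.00973), as was the nuclear receptor gene Hr78 (-0.20, adjusted p = 0.0404). In this comparison the count of 5 pathway genes fell to 3 without control replicate 1, to 2 without mutant replicate 2 and to 3 with a replicate block.

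At 16-20 h the cuticle gene Edg78E was at 13.8, 14.6 and 12.9 FPKM in mutants against 27.6, 28.5 and 29.5 in controls (ratio of means 0.482, limma adjusted p = 2.23e-04). dare, the adrenodoxin reductase that feeds electrons to mitochondrial P450 enzymes such as those of dib, sad and shd, was lower too (log2 fold change -0.40, adjusted p = 0.00429). ouib, a zinc finger regulator of spok, was lower as well (-0.48, limma adjusted p = 0.0299). It was low at this stage, with only 1 control sample at 1 FPKM or more, and the fragments did not call it (-1.14, voom adjusted p = 0.0781). In larvae E23, an ABC transporter linked to ecdysone export, was at 1.22, 1.44 and 1.35 FPKM in mutants against 0.663, 0.855 and 0.684 in controls (0.43, SE 0.10, limma adjusted p = 0.0483). Only the mutants reached 1 FPKM, so E23 passed the filter through the group where it was high. With no filter its limma adjusted p was 0.0550, and in fragments, with at least 136 in each of the 6 samples, its log2 fold change was 0.87 (SE 0.14, voom adjusted p = 0.0119). ImpE3 was lower in larvae (-0.51, SE 0.09, adjusted p = 0.0250). Leaving out any 1 larval library gave a count of 0 or 1 in place of 2, and the replicate block gave 0.

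**Figure D4:**
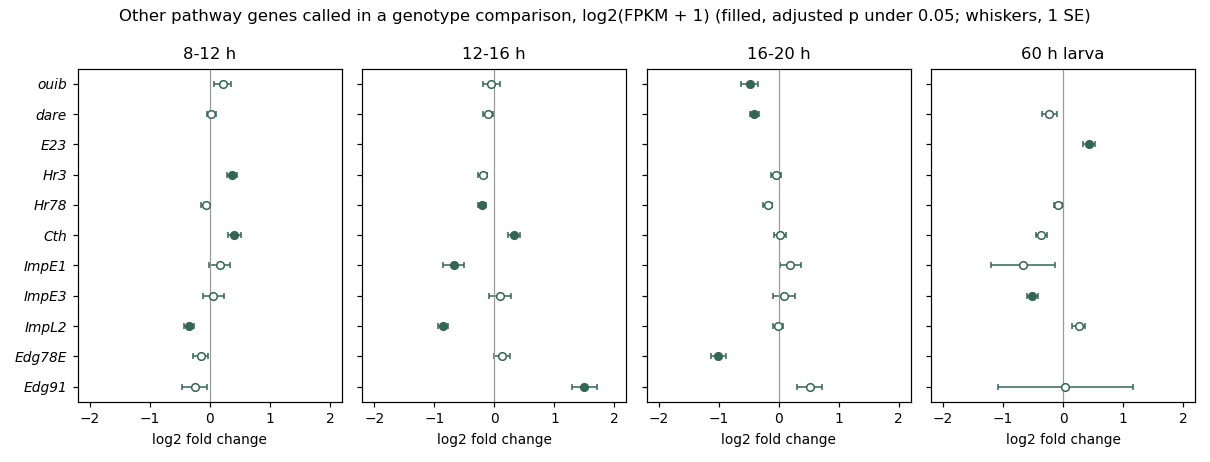
Log2 fold change of mutants against controls on log2(FPKM + 1) (x axis, whiskers 1 SE) for the 11 other pathway genes called in at least 1 comparison (y axis), at the 4 stages; filled points had an adjusted p under 0.05. ImpL2 was lower at 8-12 h and 12-16 h, Edg91 was higher at 12-16 h and Edg78E lower at 16-20 h.

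Lists chosen as markers of developmental stage differed between genotypes beside these results. The lists were chosen with earlier results of these data known, so their differences are descriptions only. Maternally supplied RNAs, summed over 10 listed genes in embryos, ran from 251 to 530 FPKM in 8-12 h mutants against 223 to 231 in controls. At 12-16 h the sums were 270 to 538 against 56.5 to 79.9, and at 16-20 h 198 to 289 against 65.6 to 91.1. Mean sums were 370 at 8-12 h and 366 at 12-16 h in mutants, against 228 and 65.9 in controls. The maternal list thus did not follow age alike in mutants and controls. Of the 8 maternal genes tested, 0 were called at 8-12 h, 4 at 12-16 h and 5 at 16-20 h, all higher in mutants. Over all genes tested the shares called in either direction were 5.63%, 31.7% and 15.8%. None of the listed maternal genes was at 0 throughout an embryo group. The Osiris genes, a cluster active as cuticle forms, summed to 433 to 977 FPKM in 8-12 h mutants against 211 to 540 in controls, and to 4865 to 5799 against 5418 to 6362 at 12-16 h. At 16-20 h they summed to 244 to 308 against 79.0 to 88.2, and all 9 were called higher, beside 15.8% of all genes called in either direction. 5 digestive enzyme genes summed to 5.10 to 6.51 FPKM in 8-12 h mutants against 7.43 to 11.2 in controls, to 23.2 to 28.2 against 17.3 to 26.1 at 12-16 h and to 92.1 to 158 against 158 to 171 at 16-20 h. In larvae the Osiris sums were 31.5 to 888 FPKM in mutants and 771 to 2135 in controls, and the digestive sums 3194 to 3927 and 1781 to 2649. The larval maternal sums were 15.8 to 22.5 and 16.7 to 17.9 FPKM over 12 genes, with 1 at 0 in every mutant and 4 in every control, osk among them in both. The part of these differences in the results for the ecdysone genes was not tested. The maternal covariate does not cleanly separate it from genotype, since the maternal sums did not overlap between genotypes at any embryo stage. With that covariate the difference of dib at 8-12 h was -0.80 (limma adjusted p = 0.0431).

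**Figure D5:**
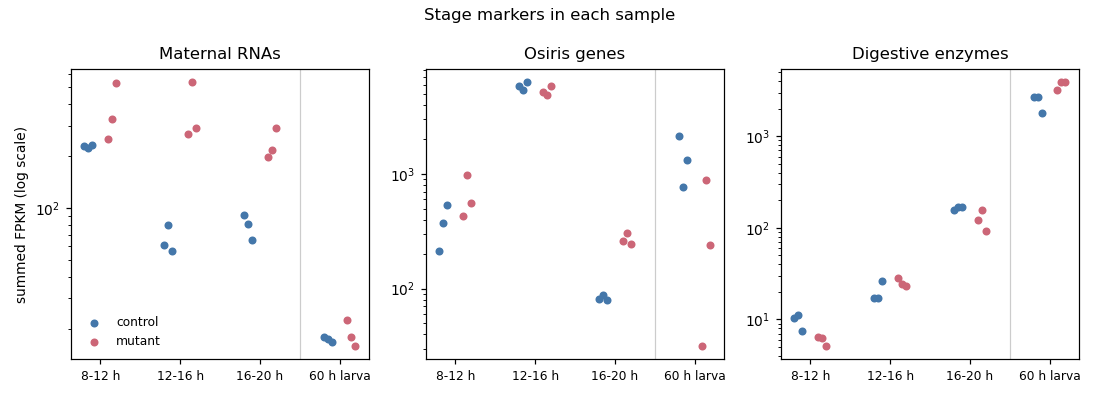
Summed FPKM of maternally supplied RNAs (left), Osiris genes (middle) and digestive enzyme genes (right) in each sample (y axis, log scale) by stage (x axis); blue points are controls and red points are mutants. Maternal sums were higher in mutants at all 3 embryo stages, and Osiris sums were higher in mutants at 16-20 h.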

How the data were processed

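RNA from 24 samples was sequenced from stranded, poly(A)-selected TruSeq libraries made from 2 µg of total RNA, per the labels. The submitters' processing notes name featureCounts, DESeq2 and build BDGP6, and the aligner and annotation are not given in the sources used here. The authors deposited FPKM values, 1 table for embryos and another for larvae, which were tested separately. The embryo table held 14336 complete rows, and its last, incomplete row was left out. Of its gene rows, 10865 of 10889 matched the annotation, and 17855 of 17895 did in larvae.

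Models were fitted with limma 3.58.1 (R 4.3.3), with a mean-variance trend in the eBayes step: 1 with 6 group means over the 18 embryo samples, which tested 6784 genes, and 1 over the 6 larval samples, which tested 8619. Fold changes on log2(FPKM + 1) understate those of low genes. Fragments were recovered as FPKM times span times a denominator read from the steps of the values. Fits were tested on simulated data. The 24 replicate pairs had r from 0.980 to 0.995 across genes and a chi-square per gene of at least 3.79, so none was a duplicate. Same-numbered samples deviated together with a mean r of 0.03 at 8-12 h, -0.08, -0.03 and, in larvae, -0.31, so they were not treated as pairs. Tables and figures were made with Python 3.11.15.

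The genes and lists were chosen with earlier results of these data known. Of the other pathway genes, up to 6 past the threshold per genotype comparison were named, by size of change, and the 2 genes most like each tested one. Alternatives were quantile normalization, median centring, a pseudocount of 0.1, a filter at 5 FPKM or none, eBayes with no trend, a replicate block, single stages, a maternal covariate, a minimum log2 fold change of 1, voom on fragments and leaving out each replicate. Recovery by span, the fragment filter, FPKM per exon length, the block for stage steps and leaving out libraries with no filter were chosen after seeing the data.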

Additional observations from a re-analysis of the deposited data

Results flagged for a closer look

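The moderated F test of genotype by stage in limma called dib over the 3 embryo stages (adjusted p = 0.0406). dib had passed the filter only with the help of the 8-12 h controls, the group where it was high. At 16-20 h it had at most 4 fragments in any sample. Its log2 fold change on log2(FPKM + 1) was -0.77 at 8-12 h, -0.35 at 12-16 h and 0.09 at 16-20 h. That order depends on the scale, since adding 1 compresses values this low. In recovered fragments the log2 fold changes were -1.21, -1.65 and 0.84, with the largest fall at 12-16 h, and the same test gave an adjusted p of 0.249. For Eip74EF the test gave an adjusted p of 0.0345, with log2 fold changes of -0.04, 0.40 and -0.09, and in fragments an adjusted p of 0.00595. Groups of 3 are too small for a test of single outlying samples.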

How the results depend on the processing

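Counts of genes called are given first for the reported fit. At 8-12 h (1) the count was 0 with a minimum FPKM of 5, single stages and a minimum log2 fold change of 1, 2 with no filter, FPKM per exon length and voom on recovered fragments, 3 with voom on exon-length fragments and 4 with the fragment filter (spo among them, which passed it only through the controls). At 12-16 h (1) it was 0 with the maternal covariate, single stages and the minimum fold change, 2 with FPKM per exon length and all 3 voom fits and 3 with median centring, quantile normalization and a pseudocount of 0.1. At 16-20 h (0) single stages gave 1, ftz-f1 (adjusted p = 0.0420), and in larvae every alternative gave 0. For the effect by stage (2) the count was 0 with the maternal covariate and 1 with a minimum FPKM of 5, no filter, a pseudocount of 0.1, quantile normalization and the 3 voom fits. From 8-12 h to 12-16 h, the counts of 5 became 2 with a minimum FPKM of 5 in both genotypes, 3 in controls and 1 in mutants with the minimum fold change, and 3 in mutants with single stages. From 12-16 h to 16-20 h the counts of 5 in controls and 3 in mutants became 1 with a minimum FPKM of 5 and with the minimum fold change, and 3 and 1 with single stages. With the replicate block the count was 1 at 8-12 h, 1 at 12-16 h and 0 for the effect by stage, and it changed no other count of the 9 genes; the numbers did not pair the samples. Without 1 library at a time the counts ran from 0 (without mutant replicate 2) to 2 (without mutant replicate 1) at 8-12 h, from 1 to 2 (without control replicate 3) at 12-16 h and from 0 to 2 for the effect by stage, which stayed at 2 only without 12-16 h control or mutant replicate 3, 16-20 h mutant replicate 1 or 8-12 h mutant replicate 1 or 3. For stage steps they ran from 4 to 5 and from 3 (without 16-20 h replicate 3) to 4 in controls, and were 5 and from 2 to 3 in mutants. The cause was not tested, except that the minimum FPKM and single stages test fewer genes. Low counts limit spo, dib after 8-12 h and shd at 12-16 h.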
